A study of Mus musculus with 6 samples.

Results

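The genes that build and anchor tight junctions were followed in mouse lung: the claudins Cldn1, Cldn3, Cldn4, Cldn5, Cldn7 and Cldn18, occludin (Ocln), and the plaque scaffolds Tjp1, which encodes ZO-1, and Cgn, which encodes cingulin. These 9 genes were given by name, and each was read from the probe whose accession maps to the gene and whose mean processed signal over the 6 arrays was highest. They are 9 of the 16370 genes that were bright enough to be tested.

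The study asked how recombinant human thrombomodulin (rhTM) alters the injured lung vasculature after endotoxin. Male C57BL6 mice, 10 weeks old and without food for 16 h, were injected i.p. with LPS at 20 mg·kg−1. The treated group received rhTM at 30 mg·kg−1 at 3 h and at 24 h, and the control group was injected at the same times. Lung tissue was taken at 30 h, and RNA from the tissue of 3 saline-treated and 3 rhTM-treated mice was hybridised to 1-colour Agilent mouse arrays, 1 array per mouse. The control injection is saline in the labels and PBS in the general methods. All 6 mice were starved and all 6 had LPS, and arrays of uninjured lung were not analysed here, so every value is a difference between injured lungs and says nothing of the change caused by LPS.

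Tight junctions seal the gap between neighbouring epithelial or endothelial cells. Claudins span the membrane and set which ions and solutes pass between the cells, occludin spans the membrane beside them, and ZO-1 and cingulin lie under the membrane and tie the strands to actin and myosin. In lung, Cldn5 is the main claudin of endothelium, Cldn18 is strong in alveolar type 1 cells, Cldn3 and Cldn4 in alveolar type 2 cells and airways, and Cldn7 in epithelium at large.

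Each array had 59305 spots for 56605 probes, of which 36243 to 40647 were well above background. The 75th percentile of signal, used to scale the arrays, lay between 675 and 850. The array of saline 1 had the most probes well above background and a spike-in slope of 0.826, against 1.07 to 1.09 on the other 5. Defining markers of endothelium, alveolar type 1 and alveolar type 2 cells and airway epithelium were present in every lung, with 12 of 12, 8 of 9, 9 of 9 and 8 of 8 of the listed genes tested. The deposit holds the values of each array as scanner output and once more as a table, and in the table the columns of saline replicate 1 and rhTM replicate 2 hold each other's scanner values (99.8% of probes equal to within 0.1%, against 0.138% and 0.136% for their own arrays). The labels do not settle which is right, and no assignment was inferred from measured levels. Values follow the scanner output, and fold changes by the authors' table are given beside those of the genes described. By the scanner files, saline 1 and rhTM 3 were on slide 2 and the other 4 arrays on slide 1. By the table, slide 2 held rhTM 2 and rhTM 3.

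The promoters of 4 claudins are shown first. Cldn1 and Cldn3 are the members whose groups did not overlap under 1 of the assignments of the arrays, Cldn4 is the divergently transcribed neighbour of Cldn3, and Cldn5 is the endothelial claudin. Each line gives 250 bases before and 50 bases after the start of the gene, 5′ to 3′ on the strand of the gene, from RefSeq (GRCm38.p6). Capitals mark matches, on either strand, to the GC box GGGCGG, to CACCTG (an E-box that repressors of the Snail family can bind), to AACCNGTT (bound by grainyhead-like factors) or to TGANTCA (bound by AP-1). No capitals of different motifs overlap. Cldn1 lies at chr16:26371790-26372089 on the minus strand, Cldn3 at chr5:134985964-134986263 on the plus strand, Cldn4 at chr5:134946885-134947184 on the minus strand and Cldn5 at chr16:18776597-18776896 on the plus strand.
Cldn1: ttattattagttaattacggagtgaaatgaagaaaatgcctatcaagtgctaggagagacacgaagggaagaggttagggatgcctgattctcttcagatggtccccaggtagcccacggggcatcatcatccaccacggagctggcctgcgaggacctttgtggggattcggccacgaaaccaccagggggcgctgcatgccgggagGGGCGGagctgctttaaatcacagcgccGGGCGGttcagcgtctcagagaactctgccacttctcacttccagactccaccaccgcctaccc
Cldn3: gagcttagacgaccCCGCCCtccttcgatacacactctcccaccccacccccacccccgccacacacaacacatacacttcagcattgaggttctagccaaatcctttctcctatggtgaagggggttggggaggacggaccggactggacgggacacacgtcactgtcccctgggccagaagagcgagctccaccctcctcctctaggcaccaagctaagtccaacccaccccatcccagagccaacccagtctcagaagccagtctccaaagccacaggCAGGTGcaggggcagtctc
Cldn4: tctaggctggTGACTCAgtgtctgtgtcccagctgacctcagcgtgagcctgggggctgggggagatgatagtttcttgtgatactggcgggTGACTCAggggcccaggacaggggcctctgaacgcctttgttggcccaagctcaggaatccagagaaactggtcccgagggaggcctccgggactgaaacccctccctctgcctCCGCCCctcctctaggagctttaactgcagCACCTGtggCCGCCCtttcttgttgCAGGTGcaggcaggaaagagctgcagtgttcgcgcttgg
Cldn5: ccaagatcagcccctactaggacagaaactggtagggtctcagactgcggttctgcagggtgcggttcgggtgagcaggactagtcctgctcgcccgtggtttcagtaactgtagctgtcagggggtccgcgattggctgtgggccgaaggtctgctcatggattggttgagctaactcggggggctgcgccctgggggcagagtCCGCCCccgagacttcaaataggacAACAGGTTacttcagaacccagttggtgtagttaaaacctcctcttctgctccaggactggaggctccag

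Cldn1 and Cldn4 each hold 2 GC boxes, and Cldn3 and Cldn5 hold 1 each. A GC box stands in 35.7% of 32851 mouse promoters of the same length. The E-box CACCTG was found once in Cldn3 and at 2 places in Cldn4, against 20.2% of all promoters with a match. Of these 4 promoters, AP-1 letters stood in Cldn4 alone, at 2 places (7.81% of all promoters), and the grainyhead letters in Cldn5 alone (2.09%). Among the other 5 members, Cgn had 6 GC boxes and also the grainyhead letters, and Tjp1 had 2 GC boxes. Cldn7, with 2 promoters in RefSeq, held 1 GC box and 2 CACCTG in 1 of them. Both Ocln promoters, which overlap, held a GC box and CACCTG, so that 4 of the 9 members carried that E-box. Neither of the 2 Cldn18 promoters in RefSeq held a match. CCGGAA, bound by ETS factors, was also searched and was found in both Cldn7 promoters and in 1 of the 2 Ocln promoters (14.9% of all). TATAAA (13.6% of all), the NF-κB motif (0.411%) and TGTTTAC of FOX factors (3.65%) were in no promoter of the 9 genes. These are matches of letters, and binding was not measured.

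None of the 9 tight junction genes passed the test between rhTM-treated and saline-treated lungs. By limma, 0 of 9 passed an adjusted p of 0.05 by the scanner files and 0 of 9 by the authors' table. The background was 0% of the 16370 genes by the scanner files and 0% of 16320 by the table. At an unadjusted p under 0.05, 0 of 9 members stood by the scanner files, against 1.87% of all genes, and 1 of 9 (Cldn3) by the table, against 14% of all genes. The mean was higher with rhTM for 4 of 9 members by the scanner files (50.7% of all genes) and for 5 of 9 by the table (46%). The members had a median log2 fold change of −0.02 on the scanner files and of 0.11 on the table. All 9 probes were well above background on 6 of 6 arrays and none was saturated. Lung tissue was measured in bulk, so fewer cells of a type and less RNA per cell cannot be told apart in any of these values.

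**Figure D1:**
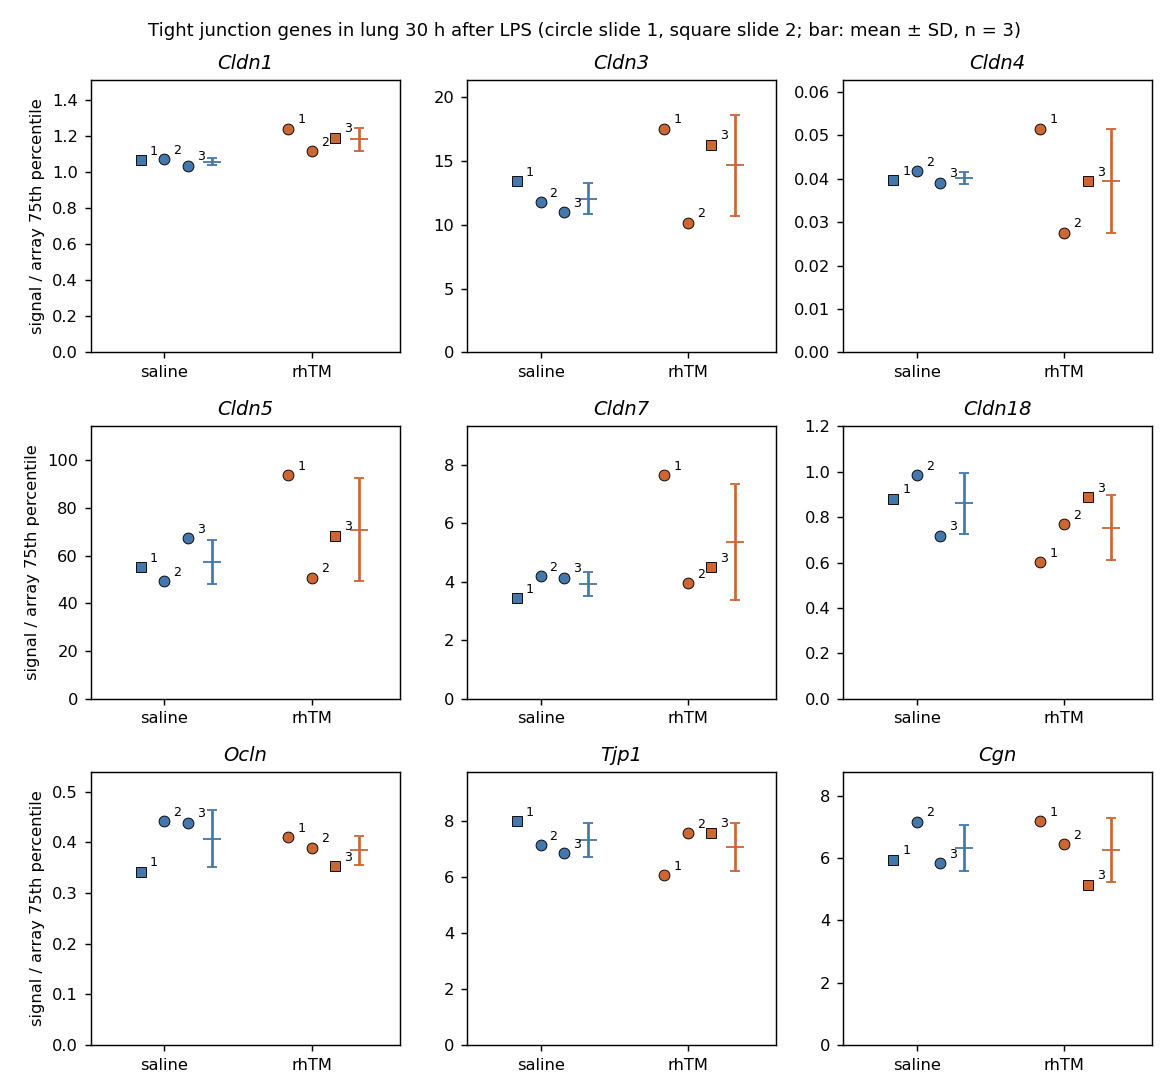
Relative signal (processed signal divided by the 75th percentile of the array, linear axis from 0) of the 9 tight junction genes by the scanner files. Each point is 1 mouse with its replicate number, circles are slide 1, squares are slide 2 and bars are the mean ± SD (n = 3). The groups overlap in 8 of the 9 panels, and Cldn1 alone has every rhTM-treated mouse above every saline-treated mouse.

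Cldn5 seals the junctions of endothelium and its loss opens the blood-brain barrier to small molecules. Its relative signal, that is the processed signal divided by the 75th percentile of the array, was 55.1, 49.2 and 67.3 in saline-treated mice 1 to 3 and 93.7, 50.6 and 68.3 in rhTM-treated mice 1 to 3. One lung, rhTM 1, stood above the other 5, while rhTM 2 lay within the saline group. The mean was 57.2 ± 9.23 with saline and 70.9 ± 21.7 with rhTM (SD, n = 3 each). The log2 fold change was 0.28 with a standard error of 0.24 and a 95% interval from −0.31 to 0.86 (limma adjusted p = 0.99994; exact permutation p = 0.4). Without rhTM 1 it was 0.05, without saline 2 it was 0.17 and without rhTM 2 it was 0.50. Without both exchanged arrays, saline 1 and rhTM 2, it was 0.48. By the authors' table it was 0.36, with a limma adjusted p of 0.490.

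The lung with the highest Cldn5 had the lowest summed endothelial signal, though not the lowest level of every marker. Of the 12 endothelial markers, Egfl7, Ramp2 and Cd34 were the brightest, at mean relative signals of 171, 99.8 and 65.2 with saline. The summed relative signal of the 12 markers, Pecam1, Cdh5 and Kdr among them, ran from 423 to 456 in saline-treated lungs. It was 337, 459 and 416 in rhTM 1, 2 and 3. The groups overlapped, with rhTM 1 apart below the other 5 lungs. Mouse rhTM 1 was the lowest of the 6 for 8 of the 12 markers, Pecam1 among them, and the highest for 2, Cdh5 (22.7) and Kdr (17.1). Set against the mean of these markers within each array, the log2 level of Cldn5 was 2.07, 1.72 and 2.33 above them with saline and 3.29, 1.74 and 2.49 above them with rhTM. The mean difference of 0.47 between the groups was smaller than the SD of the rhTM group (0.775; saline 0.303) and the groups overlapped (exact permutation p = 0.4, adjusted p = 0.8 over the Cldn5 and Cldn18 values). Without rhTM 1 the difference was 0.08, and without rhTM 2 it was 0.85. By the table the difference was 0.69 (exact permutation p = 0.2, adjusted p = 0.4). The part of endothelial content in the Cldn5 values was not tested.

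**Figure D2:**
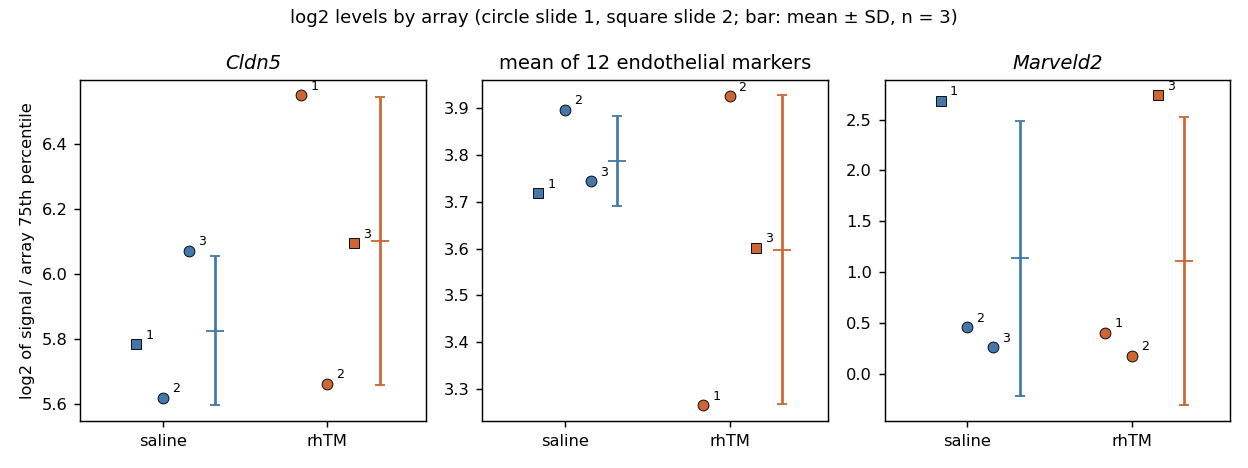
Log2 relative signal on each array of Cldn5 (left), of the mean of 12 endothelial markers (middle) and of the junction gene Marveld2 (right) by the scanner files. Points are mice with their replicate numbers, circles slide 1, squares slide 2, bars mean ± SD (n = 3), and the 3 vertical axes differ and do not start at 0. Mouse rhTM 1 is highest for Cldn5 and lowest for the endothelial mean, and Marveld2 separates by slide and not by treatment.

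Among the epithelial claudins, Cldn3 gave the lowest unadjusted p by the table, and its value turned on which arrays were counted as rhTM. Cldn3 is a sealing claudin. Its relative signal was 13.4, 11.7 and 10.97 in saline-treated mice and 17.5, 10.2 and 16.3 in rhTM-treated mice. Mice rhTM 1 and rhTM 3 lay above every saline-treated mouse and rhTM 2 below every one. The means were 12.04 ± 1.24 and 14.6 ± 3.93, with a log2 fold change of 0.25 (SE 0.23, 95% interval −0.29 to 0.78; limma adjusted p = 0.99994). Without rhTM 1 it was 0.10, without rhTM 3 0.15 and without rhTM 2 0.49. Without both exchanged arrays, saline 1 and rhTM 2, it was 0.57 (limma adjusted p = 0.648). Under the authors' table the low array counts as saline, and the means became 10.95 ± 0.797 with saline and 15.7 ± 2.10 with rhTM. The groups then did not overlap, as for 9.68% of all genes with every rhTM-treated mouse above, and the log2 fold change was 0.51 (SE 0.13, 95% interval 0.20 to 0.83; limma adjusted p = 0.314; exact permutation p = 0.1, the smallest that 3 against 3 arrays allow). The airway markers, among them Scgb1a1, Scgb3a2 and Cyp2f2, had their lowest sum in rhTM 2 as well. It was 624 in rhTM 2, against 759 to 876 with saline and 878 and 947 in the other two rhTM-treated mice, and rhTM 2 was lowest for 7 of the 8 markers. The alveolar type 2 markers went otherwise. Their lowest sum, 1376, was in rhTM 1, the lung with the highest Cldn3, which was lowest for 7 of 9 of them and highest for 1. The part of airway or alveolar type 2 content in the Cldn3 values was not tested.

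Cldn4, next to Cldn3 on chromosome 5, had its lowest level in the same array. It tightens alveolar epithelium and is known to rise in acute lung injury. Its probe was the dimmest of the 9, at a mean processed signal of 30.1 against 10027 for Cldn3, so its values lie close to the floor. The relative signal was 0.0396, 0.0417 and 0.0391 with saline and 0.0514, 0.0276 and 0.0394 with rhTM. Saline-treated mice lay close together, with rhTM 1 above them, rhTM 2 below them and rhTM 3 among them. This left a log2 fold change of −0.07 (SE 0.23, 95% interval −0.61 to 0.47) by the scanner files and 0.28 by the table, so its sign turned with the assignment (limma adjusted p = 0.99994 and 0.529). It turned with single arrays too, at 0.17 without rhTM 2 and −0.28 without rhTM 1 by the scanner files.

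Cldn7, found along the lateral membrane as well as in the junction, had the highest log2 fold change of the 9 genes by the scanner files, and 1 mouse was far from the others. Its relative signal was 3.44, 4.19 and 4.15 with saline and 7.65, 3.95 and 4.50 with rhTM. Mouse rhTM 1 lay far above the rest, and the other two rhTM-treated mice lay near the saline group. Its log2 fold change was 0.39 (SE 0.26, 95% interval −0.22 to 1.01; limma adjusted p = 0.99994; exact permutation p = 0.3), and 0.11 without rhTM 1. By the table it was 0.26 (limma adjusted p = 0.675), and −0.06 without rhTM 1. Without both exchanged arrays it was 0.49.

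Cldn1, a claudin of barriers such as the epidermis and of airways, varied least among the members on the log2 scale across the 6 arrays. The relative signal was 1.06, 1.07 and 1.04 with saline and 1.24, 1.11 and 1.19 with rhTM. Every rhTM-treated mouse was above every saline-treated mouse, as for 2.95% of all genes. The means were 1.06 ± 0.0185 and 1.18 ± 0.0626, a 1.12-fold difference with a 95% interval from 0.932 to 1.34 (limma adjusted p = 0.99994; exact permutation p = 0.1). The log2 fold change was 0.16 (SE 0.11). Under the table the groups overlapped and it was 0.11 (limma adjusted p = 0.621).

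Cldn18, whose lung form is a mark of alveolar epithelium, was read from a single probe. That probe carries the accession of 1 of the 4 RefSeq transcripts of the gene, so it may not stand for all forms. Relative signals of 0.882, 0.985 and 0.718 were measured with saline and of 0.603, 0.769 and 0.888 with rhTM. The groups overlapped, and rhTM 1 was lowest. The log2 fold change was −0.20 (SE 0.19, 95% interval −0.66 to 0.26; limma adjusted p = 0.99994) and −0.07 by the table. Without rhTM 1 it was −0.05, without saline 2 −0.10 and without rhTM 3 −0.33 by the scanner files. Against the mean of 8 alveolar type 1 markers, among them Ager, Hopx and Pdpn, the log2 level of Cldn18 was −5.52, −5.50 and −5.72 with saline and −6.02, −5.77 and −5.19 with rhTM. The difference between the groups was −0.08, well under the SD of the rhTM group (0.422), and 0.09 by the table (exact permutation p = 0.9 and 0.8). By the scanner files the difference was 0.10 without rhTM 1 and −0.31 without rhTM 3. The alveolar type 1 markers summed to 377 to 453 with saline and 346 to 418 with rhTM, and the alveolar type 2 markers, among them Sftpc, Sftpb and Sftpa1, to 1403 to 1919 and 1376 to 1786.

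**Figure D3:**
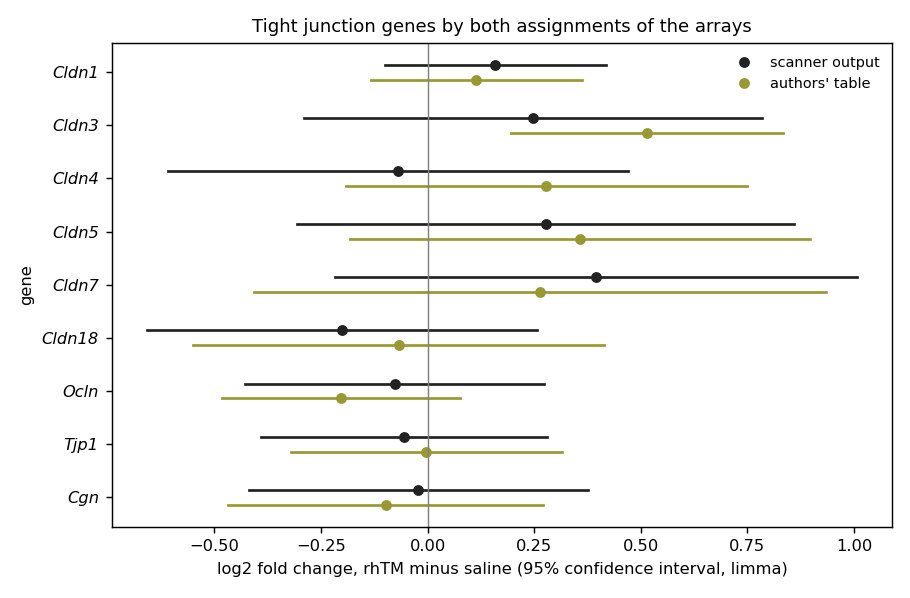
Log2 fold change (rhTM minus saline, horizontal axis) of the 9 tight junction genes with the 95% confidence interval from limma, by the scanner files (black) and by the authors' table (olive). Every interval spans 0 except that of Cldn3 by the table, from 0.20 to 0.83, whose adjusted p was 0.314.

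Occludin and both scaffolds had log2 fold changes from −0.08 to −0.02 by the scanner files. Ocln, which regulates the passage of larger solutes, had relative signals of 0.342, 0.441 and 0.439 with saline and 0.410, 0.390 and 0.353 with rhTM. A log2 fold change of −0.08 was found (SE 0.15, 95% interval −0.43 to 0.27; limma adjusted p = 0.99994), and −0.20 by the table. By the scanner files Ocln was at −0.20 without saline 1, −0.015 without saline 2 and −0.018 without rhTM 3. Its 2 lowest arrays were saline 1 and rhTM 3, the pair on slide 2.

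Tjp1 encodes ZO-1, the scaffold on which claudin strands assemble. Its relative signal was 7.97, 7.12 and 6.83 with saline and 6.06, 7.54 and 7.56 with rhTM. Here the same 2 arrays of slide 2 were the highest and rhTM 1 was the lowest. Its log2 fold change was −0.06 (SE 0.14, 95% interval −0.39 to 0.28; limma adjusted p = 0.99994), with −0.04 at a dimmer probe of the gene. By the table the brighter probe gave −0.0028 and the dimmer −0.14. The value of the brighter probe turned to 0.05 without rhTM 1 and to 0.0083 without saline 1.

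Cgn encodes cingulin, which binds ZO-1 and holds back RhoA through a guanine nucleotide exchange factor. Relative signals were 5.95, 7.17 and 5.84 with saline and 7.18, 6.45 and 5.14 with rhTM, with full overlap of the groups. A log2 fold change of −0.02 was found (SE 0.17, 95% interval −0.42 to 0.38; limma adjusted p = 0.99994). Its sign turned on single arrays, with 0.07 without saline 2, 0.11 without rhTM 3 and −0.13 without rhTM 1. A dimmer Cgn probe gave −0.16, and 0.52 by the table, where the brighter gave −0.10.

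Over the 9 members, single lungs stood at the ends of the range. Mouse rhTM 1 was the highest of the 6 arrays for 6 of 9 genes (Cldn1, Cldn3, Cldn4, Cldn5, Cldn7 and Cgn) and the lowest for Cldn18 and Tjp1. Its mean correlation with the other arrays over 34110 probes was 0.982, against 0.986 to 0.989 for the others. Mouse rhTM 2 was the lowest for Cldn3 and Cldn4. The widest range over the arrays was that of Cldn7, at 1.15 log2 units, and the narrowest that of Cldn1, at 0.26.

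**Figure D4:**
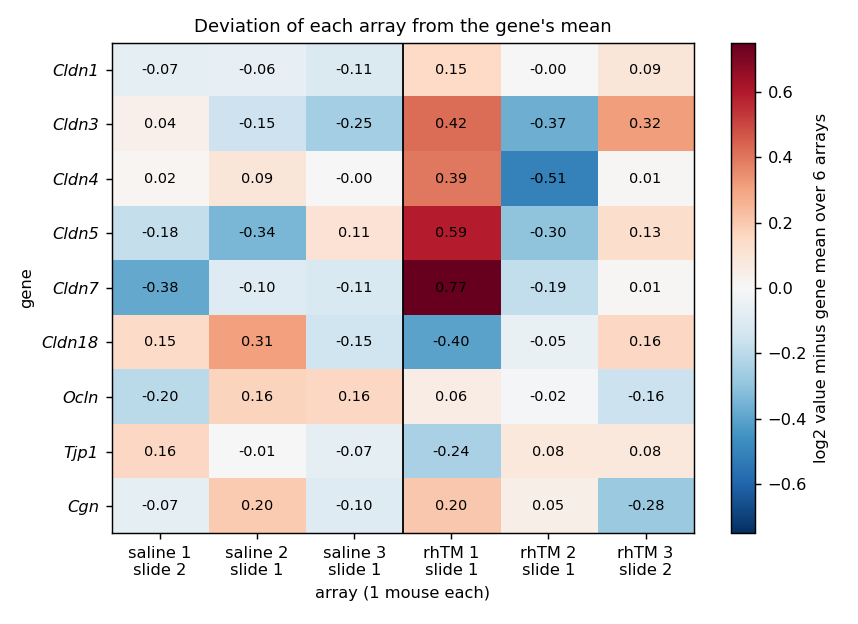
Deviation of each array (columns, 1 mouse each) from the mean of the gene over 6 arrays (rows, the 9 members), in log2 units, with red above and blue below the mean. The column of rhTM 1 holds the deepest red, at 0.77 for Cldn7, and the column of rhTM 2 the deepest blue, at −0.51 for Cldn4, whose probe was the dimmest of the 9.

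Within each slide, the difference between rhTM and saline kept the same sign for 6 of 9 members. The share over all genes was not computed, so no agreement is read from this count. Slide 1 gave Cldn5 0.26 and Cldn7 0.40, and the single pair on slide 2, rhTM 3 against saline 1, gave 0.31 and 0.39. The slide 1 values rest on mouse rhTM 1. On that slide the log2 level of Cldn5 was 5.66 in rhTM 2, against 5.62 and 6.07 in saline 2 and 3. That of Cldn7 was 1.98 in rhTM 2, against 2.07 and 2.05. Opposite signs were found for Cldn18 (−0.31 and 0.01), Ocln (−0.14 and 0.05) and Cgn (0.07 and −0.21). With the slide as a term, 233 of 16370 genes (1.42%) differed between slides at an adjusted p under 0.05, and 0 of 9 members were among them. Ocln and Tjp1 were the 2 of 9 members whose slides did not overlap, against 32.7% of all genes. On the authors' table slide 2 holds rhTM-treated mice only, so the fit with a slide term compares mouse rhTM 1 alone with the 3 saline-treated mice of slide 1. That fit gave a log2 fold change of 0.68 for Cldn3, 0.77 for Cldn5 and 0.90 for Cldn7 (limma adjusted p = 0.0718, 0.109 and 0.0539), and called 432 genes.

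Beyond the members, 2 of 111 other junction genes differed between slides, and Marveld2 differed more. It encodes tricellulin, a relative of occludin that seals the points where 3 cells meet. Its relative signal was 6.43 in saline 1 and 6.67 in rhTM 3, both on slide 2, and between 1.13 and 1.37 on the 4 arrays of slide 1. The slides differed 5.23-fold (limma adjusted p = 0.00347). For rhTM the log2 fold change was −0.03 by the scanner files and 1.65 by the authors' table, in which both bright arrays count as rhTM. Nectin4, an adhesion molecule of adherens junctions, differed 3.12-fold between slides (limma adjusted p = 0.0431), with log2 fold changes for rhTM of 0.44 and, by the table, 1.47.

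The wider junction machinery gave the same count. Of 111 other junction genes tested in 6 lists, 0 passed by limma, 0 had an unadjusted p under 0.05 (1.87% of all genes), and 4 had groups that did not overlap (5.52%). The mean was higher with rhTM for 49 of 111, and the median log2 fold change was −0.01. Of 110 tested on the table, 0 passed, with 19 at an unadjusted p under 0.05 (14% of all genes), 32 whose groups did not overlap (21.7%) and 57 higher with rhTM. Higher means were found for 8 of 14 other claudins, 6 of 14 other membrane proteins, 9 of 29 plaque and polarity proteins, 8 of 16 adherens junction genes, 8 of 18 actomyosin regulators and 10 of 20 transcription factors. The list of other claudins includes Cldnd1 and Cldnd2, which are claudin domain genes and not claudins. List medians ran from −0.06 for the plaque proteins to 0.05 for the list of other claudins. Of the 21 genes on that list, Cldn25 was not found by name, and Cldn6, Cldn11, Cldn13, Cldn16, Cldn17 and Cldn24 were too dim to test.

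Cldn2, a pore-forming claudin that lets cations and water through, had the highest log2 fold change of these 111 genes, 0.91 (SE 0.49, 95% interval −0.27 to 2.08; limma adjusted p = 0.99994). Its relative signal was 0.0492, 0.0741 and 0.0850 with saline and 0.272, 0.0693 and 0.108 with rhTM. As for Cldn7, mouse rhTM 1 alone lay far above the rest. By the table the value was 0.58.

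Cldn15, another pore-forming claudin, had the lowest, −0.71 (SE 0.36, 95% interval −1.57 to 0.15; limma adjusted p = 0.99994). Its relative signal was 1.27, 2.62 and 1.87 with saline and 0.795, 1.74 and 1.04 with rhTM. Mice rhTM 1 and rhTM 3 were lowest and saline 2 highest. By the table the groups did not overlap, as for 12% of all genes with rhTM below, and the log2 fold change was −1.01 (limma adjusted p = 0.314). The mesothelial markers, among them Msln, Upk3b and Wt1, were also lowest in rhTM 1 and rhTM 3 and highest in saline 2. Their sum was 32.9, 50.8 and 36.0 with saline and 25.5, 36.6 and 22.8 with rhTM, and the mean of 5 of 5 was lower with rhTM (0 passed by limma). The part of mesothelium in the Cldn15 values was not tested.

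The remaining genes named by the lowest unadjusted p differed less. Pard3, a polarity scaffold, had a log2 fold change of 0.28 and its relative Pard3b one of −0.27, against 0.17 and −0.16 by the table. Every rhTM-treated mouse (0.153 to 0.177) was below every saline-treated mouse (0.186 to 0.199) for Pard3b, as for 2.57% of all genes, though not by the table. For plakoglobin (Jup), which links cadherins to the cytoskeleton, the values were 1.01, 1.12 and 1.05 with saline and 0.830, 0.994 and 0.805 with rhTM, again without overlap by the scanner files, at a log2 fold change of −0.28, against −0.26 by the table. Cldnd2 (0.37), Elf5 (0.22), a transcription factor of epithelia, and Cldn14 (−0.47) had overlapping groups, and by the table they were at −0.03, 0.06 and 0.15, so that the first and last changed sign. The limma adjusted p was 0.99994 for all 6 genes by the scanner files.

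The genes of closest pattern over the 6 arrays were sought for all 9 members, by the root mean square difference of log2 values centred on the gene. The difference to the nearest gene ran from 0.0114 for Tjp1 to 0.0689 for Cldn4, and the nearest genes are given for 3 members. Nearest to Cldn5 were Dusp1 (0.0574), Ldhd (0.0601) and Rsph9 (0.0609). Cldn4 was approached by Rps6ka2 (0.0689), 1700018L02Rik (0.0816) and Btbd11 (0.0885), and Cldn18 by Cdk1 (0.0414), Tgfb1 (0.0451) and Dmtn (0.0462). With 6 arrays and 16370 genes such likeness is a description only.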

How the data were processed

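The authors deposited scanner output from Feature Extraction 10.7.3.1 (9.1 in the submitters' processing notes), whose processed signal is a linear intensity, corrected for background and not scaled between arrays, and a table of the same intensities. Control spots were removed, replicate spots were averaged, and 398 probes that had no unflagged spot on an array were removed. Analysis used log2 signal minus the 75th percentile of the array. Accessions were matched to a RefSeq gene table (GRCm38.p6), which named 32994 probes for 22911 genes. The array was annotated on another build, so probe coordinates are left out. Probes had to exceed background on every array of a group, and the brightest stood for its gene.

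The comparison was fitted with limma 3.58.1 under R 4.3.3 (lmFit, eBayes). P-values were adjusted by Benjamini-Hochberg over every gene tested, at a threshold of 0.05. For single values the two-sided p came from exact permutation of the 6 arrays (smallest p 0.1). P-values measure the spread between 3 mice per group. The members and gene lists were chosen with earlier results of these data known. Genes named were the 9 members, the 4 other junction genes with the lowest p in each direction, the 3 genes nearest in pattern to Cldn4, Cldn5 and Cldn18, and the first 3 markers of a list described. Marveld2, Nectin4, Cldn19, Crb3, Sox17 and Sox18 were added after their values were seen. Alternatives were the authors' table (alone, with a slide block and without each array), normexp with an offset of 50 (on median spot signals, since mean signals were not in the output), quantile normalisation, the 75th percentile of bright probes, no and stricter filters, a block for slide or for replicate number, averaging the probes of a gene, leaving out each array or both exchanged arrays, and the methods' t-test. The t-test on the authors' table and the values within each slide were chosen after seeing the data. The fits were tested on simulated data. The number of arrays limits the precision.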

Additional observations from a re-analysis of the deposited data

How the results depend on the processing

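No alternative brought any of the 9 tight junction genes past an adjusted p of 0.05. The lowest adjusted p was 0.0539 for Cldn7 and 0.0718 for Cldn3, both by the table with a slide block. Cldn1, Cldn3, Cldn5 and Ocln kept their direction in the alternatives run, though the filters, the blocks on the scanner files, probe averaging and the t-test leave the fold change of a gene with 1 probe as it was by construction. The count of all genes called was 0 by the scanner files, 1 without both exchanged arrays and 0 to 3 with 1 array left out (3 without saline 1, 2 without rhTM 1). By the authors' table it was 432 (2.65%) with the slide as a block and 0 to 589 with 1 array left out (589, or 3.54%, without rhTM 1, and 1 without saline 1). Without rhTM 1 the table has every rhTM-treated mouse on slide 2 and every saline-treated mouse on slide 1, so treatment and slide cannot be told apart in that fit. The count of other junction genes called was 4 of 110 (3.64%) by the table with a slide block, at log2 fold changes of 0.81 for Cldn19, 0.68 for Crb3, −1.27 for Sox17 and −1.50 for Sox18. The count of other junction genes called was 3 of 110 (2.73%) by the table without rhTM 1 (0.76 for Crb3, 2.42 for Marveld2 and 1.83 for Nectin4). Marveld2 and Nectin4 also differed between slides by the scanner files. The count was 0 with 1 array left out by the scanner files. The methods' t-test called 0 genes after Benjamini-Hochberg adjustment by either source. At an unadjusted threshold of 0.05 it called 1 of 9 members by each, Cldn1 by the scanner files (2.08% of all genes) and Cldn3 by the table (12.7% of all genes).

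Log2 fold changes that reversed were those of Cldn4 by the authors' table (0.28, also by the methods' t-test), by the table with a slide block (0.53), without both exchanged arrays (0.16) and by normexp (0.0037), and that of Cgn by the table with a slide block (0.15). With 1 array left out, over both the scanner files and the table, Cldn1 ran from 0.07 to 0.20, Cldn3 from 0.099 to 0.63, Cldn5 from 0.05 to 0.54, Ocln from −0.28 to −0.015, Cldn4 from −0.28 to 0.39, Cldn7 from −0.056 to 0.59, Cldn18 from −0.33 to 0.12, Tjp1 from −0.11 to 0.12, Cgn from −0.22 to 0.11, Cldn5 relative to endothelial markers from 0.076 to 0.96 and Cldn18 relative to alveolar type 1 markers from −0.31 to 0.31. The last was 0.086 by the table. The causes were not tested.

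With the replicate number as a block, 0 genes and 0 members passed. Deviations of same-numbered arrays correlated at −0.30, 0.44 and −0.45. By the scanner files the arrays at 0.44 shared a slide, and those at −0.30 and −0.45 were split between slides. The assignment of saline 1 and rhTM 2 is also not settled. Whether the numbers pair the samples therefore cannot be told from these values.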
